A study of Mus musculus with 20 samples.

Results

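Kv4 channels carry a rapidly inactivating, subthreshold A-type potassium current in the soma and dendrites of neurons. KChIPs are calcium-binding proteins that assemble with Kv4 subunits and set how many channels reach the membrane and how fast they inactivate. Channels of the EAG family (EAG, ERG and ELK) are voltage-gated potassium channels with a cyclic nucleotide-binding homology domain, of which ERG channels are best known for the repolarization of the heart.

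The genes described here are Kcnd2 and Kcnd3, which encode Kv4 pore subunits, Kcnip1, Kcnip2, Kcnip3 and Kcnip4, which encode the KChIPs, and 4 genes of the EAG family. The latter are Kcnh1 (EAG), Kcnh2 and Kcnh7 (ERG) and Kcnh3 (ELK). They were chosen by name, with earlier results of these data known, and all 10 were found by symbol among the 55401 genes of the count table. All 10 had enough reads to be tested in each comparison. The main tests covered protein-coding genes, and shares of all genes refer to the genes tested. The KChIP genes lie on chromosomes 11, 19, 2 and 5 of GRCm38, in the order of their numbers, so they share no locus.

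RNA was sequenced from the cerebellum of 20 C57BL/6J mice, with 1 cerebellum in each library, in a study of an AAV-delivered shRNA directed at the CAG repeat of Atxn7 in spinocerebellar ataxia type 7 (SCA7). SCA7 mice are knock-in animals with 140 glutamine codons on 1 allele of Atxn7 and 5 on the other. The labels do not say whether their weeks are ages or are counted from another day. The article counts from the injection, with the same number of weeks for the early treated mice and a smaller one for the late treated mice, so the weeks are used here as names of the groups. The late groups, labelled 25 weeks, are 5 SCA7 mice given the AAV with shA4, 5 SCA7 mice given the AAV with the scrambled shSCR, and 4 untreated WT mice. The early groups, labelled 9 weeks, are 3 WT mice given shA4 and 3 untreated WT mice. The article gives the late mice with shSCR, the late WT mice and the weighed SCA7 mice with shA4 as males. Its main text does not state the sex of the early mice. The vectors have the PHP.eB capsid, express the shRNA from the H1 promoter and also carry eGFP under the CMV promoter, and neither promoter is limited to a cell type. In the article's sections of the cerebellum, eGFP marked most Purkinje cells and some cells of the molecular layer. Granule neurons were marked rarely or not at all, so bulk RNA also holds many cells without the vector. The methods state that untreated mice received saline. No group of SCA7 mice went without AAV and no late WT group received it, so genotype and vector cannot be told apart when SCA7 mice are compared with WT mice.

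Reads counted on genes ranged from 31465586 to 54570503 per library. The early treated libraries (36245752 to 39208298 reads) were less deep than the early untreated ones (47455917 to 49212593). Levels are given as CPM, read counts scaled to library size with TMM factors, and levels of different genes are compared as RPKM, CPM per kb of median transcript length. A gene was called when its Benjamini-Hochberg adjusted p in edgeR's quasi-likelihood test was under 0.05 and its fold change was above 1.3 in either direction.

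Late libraries of 2 mice stood apart from the others. Untreated WT 25-week replicate 1 and SCA7 shA4 replicate 1 had 122 and 120 CPM of Nrgn, a gene of forebrain neurons, against 2.09 to 15.4 CPM in the other 12 late libraries. Slc17a6, the vesicular glutamate transporter of nuclear and brainstem neurons, was at 80.3 and 74.5 CPM in them and at 14.4 to 31.1 CPM in the others. Among the 7 forebrain markers, whose summed level was 140 and 133 CPM in these libraries and 12.8 to 25.3 CPM in the other late ones, Nrgn alone made up most of the sum in both. Early libraries also differed in Nrgn, with 30.9, 13.2 and 41.6 CPM after shA4 and 3.39, 52.6 and 7.14 CPM without. Slc17a6 was the 1 gene that stood apart among 7 markers of cerebellar and vestibular nuclei or brainstem, whose summed level was 123 and 107 CPM in the late pair and 46.3 to 70.8 CPM in the other late libraries. Spp1 was at 42.7 and 32.4 CPM in the pair and at 29.2 to 39.8 CPM in the others, and the other 5 were under 0.5 CPM in each late library.

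**Figure D1:**
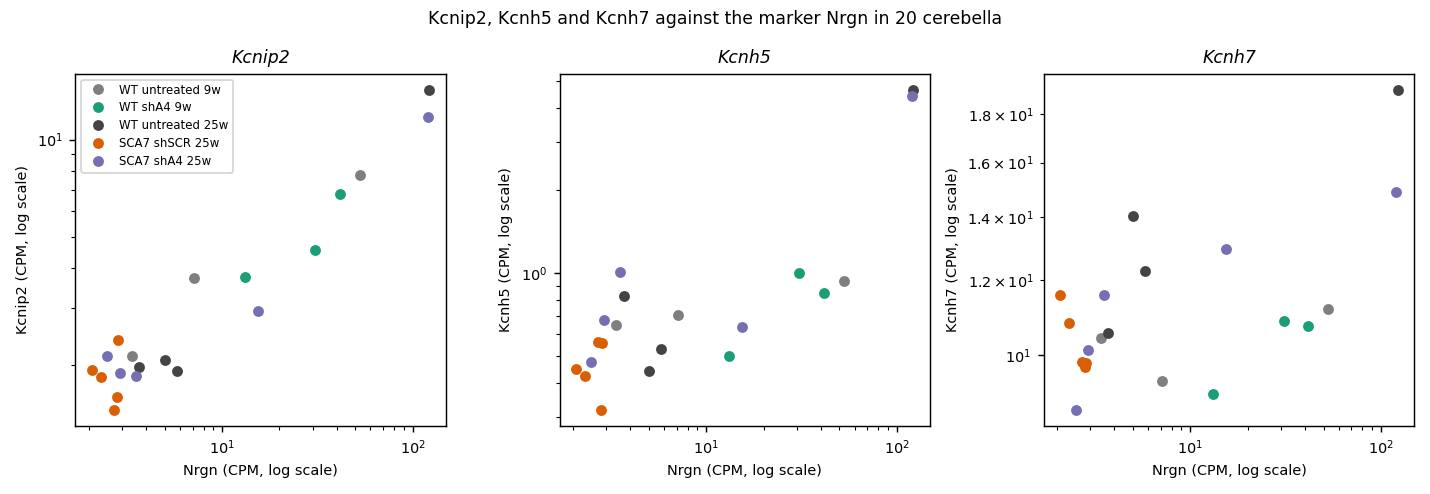
Levels of Kcnip2, Kcnh5 and Kcnh7 (vertical axes, 1 panel per gene) against the level of Nrgn, all as CPM on log axes, in the 20 libraries, with 1 point per library and the group given by color. The late libraries with 122 and 120 CPM of Nrgn hold 14.3 and 11.8 CPM of Kcnip2.

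Per length, Kcnd2, Kcnd3, Kcnip3 and Kcnip4 were more abundant than Kcnip1, Kcnip2, Kcnh1, Kcnh3 and Kcnh7 with both gene lengths tried. The order within these sets and the place of Kcnh2 rest on the length. With the median transcript, in untreated WT mice at 25 weeks, Kcnip3 was at 60.6 ± 2.15 RPKM, Kcnd3 at 60.5 ± 2.53, Kcnip4 at 59.0 ± 3.02 and Kcnd2 at 54.3 ± 2.23 RPKM (SD, n = 4), and neighbors in this order overlapped between mice. Kcnip1 followed at 29.6 ± 1.44 RPKM. Kcnh2 ranked first at 78.3 ± 11.1 RPKM, since its median transcript has 741 bases and its exons together span 4845. With the length of all exons Kcnd2 came first at 54.3 RPKM, followed by Kcnip4 at 35.2, Kcnip3 at 34.4 and Kcnd3 at 16.8 RPKM. Kcnh2 (11.98 RPKM), Kcnip1 (11.1) and Kcnh1 (10.9) then came close together and overlapped as neighbors. With the median transcript Kcnh1 was at 11.2 ± 0.793 RPKM, Kcnh7 at 4.73 ± 1.25 and Kcnip2 at 5.95 ± 7.23 RPKM. The mean of Kcnip2 rests on WT replicate 1 at 16.8 RPKM. The other 3 mice were at 2.33 ± 0.0961 RPKM (SD, n = 3), below each mouse in Kcnh7. Kcnh3 was the least abundant member at 1.26 ± 0.237 RPKM, which corresponds to 74 to 153 reads per WT library.

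**Figure D2:**
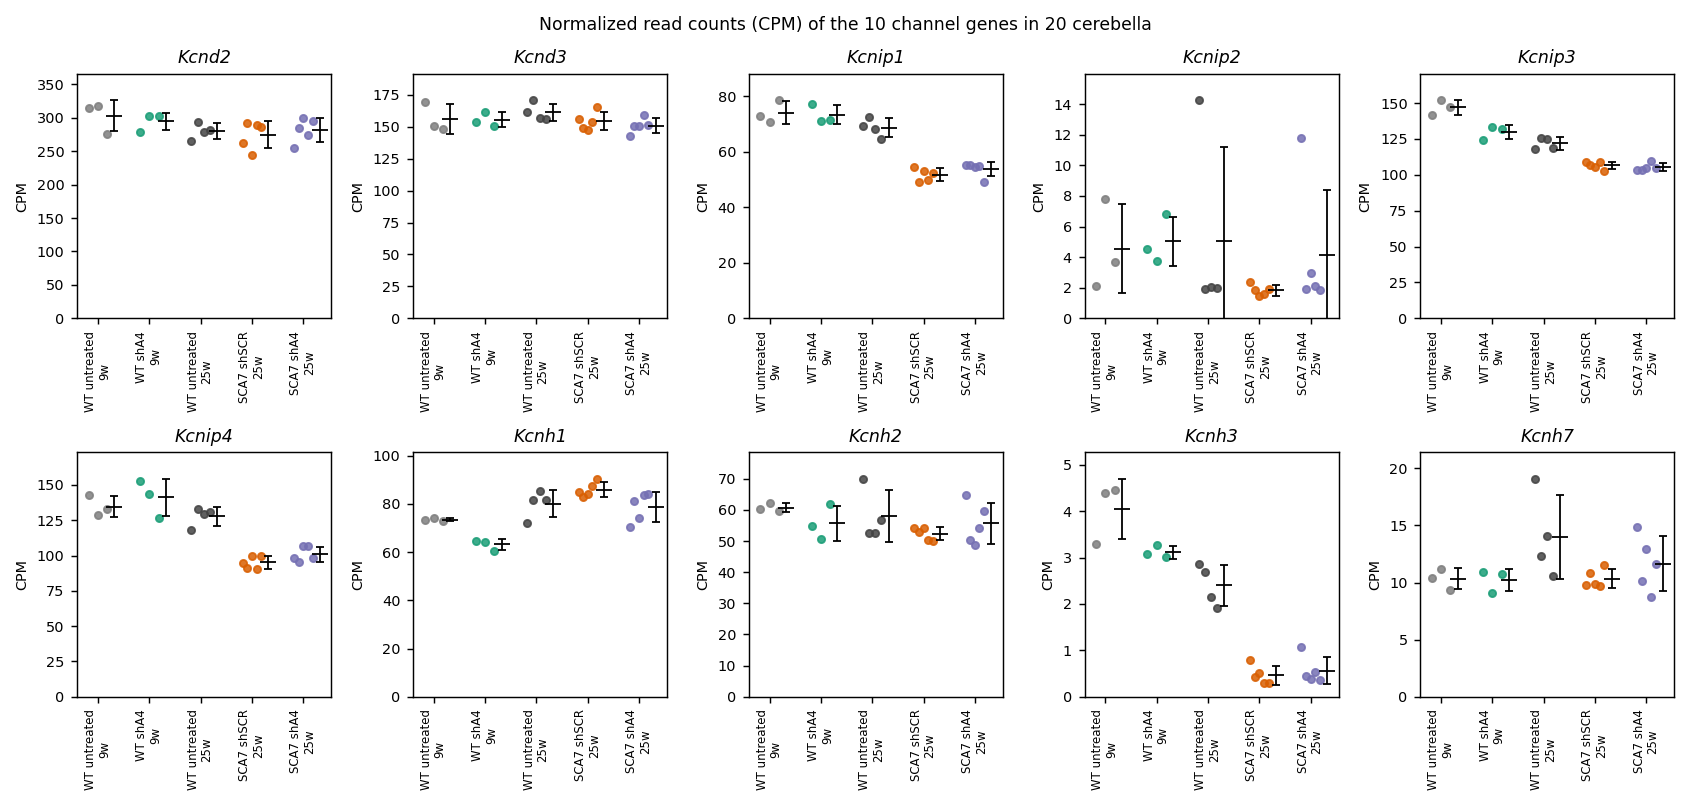
Level of each of the 10 genes (CPM, vertical axes from 0) in the 5 groups, with 1 point per library and bars for the mean and SD. Kcnip1, Kcnip3, Kcnip4 and Kcnh3 are lower in each of the 10 SCA7 libraries than in each of the 4 untreated WT libraries at 25 weeks.

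The first late comparison asks how SCA7 cerebella treated with the scrambled shRNA differ from WT cerebella. Kcnip1 and Kcnip4, which encode KChIPs, and the ELK channel gene Kcnh3 fell, and the Kv4 genes did not pass the test. These 3 calls among 10 members, all of them lower, compare with 4.02% called among the 14862 genes tested and 2.66% called as lower. The median log2 fold change of the members was −0.30, against 0.0017 over all genes tested. As the members were chosen with earlier results of these data known, these contrasts with all genes are a description. Without the late pair that stood apart the same 3 members were called and the medians were −0.16 and 0.0055. An adjusted p under 0.05 alone was reached by 4 of the 10 members (15.5% of all genes), and 4 members did not overlap between the groups (16.7% of all genes). An unadjusted p under 0.05 was reached by 6 members and by 28.7% of all genes.

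Kcnip1 (ENSMUSG00000053519) was measured at 69.5, 72.6, 68.3 and 64.5 CPM in WT mice and at 54.5, 49.2, 53.0, 49.9 and 52.4 CPM in SCA7 mice given shSCR. The highest SCA7 mouse lay below the lowest WT mouse. Kcnip1 fell by 24.4%, a log2 fold change of −0.40 (SE 0.044, adjusted p = 6.23e-06 in edgeR), lower in 5 of 5 SCA7 mice. The study itself names Kcnip1 from these libraries. In bulk tissue, fewer cells of a type and less RNA per cell cannot be told apart.

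Kcnip4 (ENSMUSG00000029088) was measured at 118, 133, 129 and 131 CPM in WT mice and at 94.8, 90.9, 99.9, 90.8 and 99.7 CPM in SCA7 mice given shSCR. Again no SCA7 mouse reached the lowest WT mouse. It fell by 25.2%, a log2 fold change of −0.42 (SE 0.045, adjusted p = 5.47e-06 in edgeR). Both folds lie close to the limit of 1.3. Scaling by library totals alone gave −0.36 for Kcnip1 and −0.37 for Kcnip4, and leaving out WT replicate 2 gave −0.38 for Kcnip1, which ended the calls through the fold limit.

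Kcnip3 (ENSMUSG00000079056), whose product is also known as the transcriptional repressor DREAM, was measured at 118, 126, 125 and 118 CPM in WT mice and at 109, 107, 106, 109 and 103 CPM after shSCR. The groups did not overlap, but the difference was small. Its log2 fold change of −0.19 (SE 0.030, adjusted p = 0.000371 in edgeR) passed the adjusted p and stayed under the fold limit. An exact two-sided permutation test gave p = 0.00794, the smallest it can give for 5 against 4 mice, for Kcnip1, Kcnip3, Kcnip4 and Kcnh3 alike.

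Kcnh3 (ENSMUSG00000037579) was measured at 2.87, 2.68, 2.14 and 1.91 CPM in WT mice and at 0.795, 0.424, 0.515, 0.290 and 0.291 CPM in SCA7 mice given shSCR. These values rest on 10 to 27 reads in each SCA7 library. The log2 fold change was −2.37 (SE 0.31, adjusted p = 4.98e-05 in edgeR), and Kcnh3 was called in each of the 26 other settings tried, with values from −2.64 to −0.63, the latter with the normal prior of DESeq2, which shrinks folds. The ERG gene Kcnh7 was measured at 19.1, 12.3, 14.1 and 10.6 CPM in WT mice and at 9.81, 10.8, 9.83, 9.70 and 11.6 CPM after shSCR. WT replicate 1 was the highest, and the groups overlapped. Its log2 fold change was −0.44 (SE 0.16, adjusted p = 0.0682 in edgeR), within 0.0267 to 0.281 over all settings, of which 5 of 26 gave a call. Among these were DESeq2 (−0.44, adjusted p = 0.0309) and, in edgeR, the fit of the 2 groups alone (−0.44, adjusted p = 0.0433) and those without WT replicate 4 (−0.55, adjusted p = 0.0267) and without SCA7 shA4 replicate 1 (−0.44, adjusted p = 0.0459). Without WT replicate 1, a library that stood apart, it was −0.25 (adjusted p = 0.281), and −0.25 without the late pair (adjusted p = 0.183), both in edgeR and neither a call.

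The Kv4 genes kept their level within the spread between mice. Kcnd2 was at 275 ± 20.3 CPM in SCA7 mice given shSCR (n = 5) and 280 ± 11.5 CPM in WT mice (SD, n = 4), and Kcnd3 at 154 ± 7.16 and 161 ± 6.75 CPM. Their log2 fold changes were −0.024 and −0.060, and that of Kcnd2 was 0.024 with library totals alone and −0.048 without the late pair. As a description, the summed CPM of the KChIP genes divided by that of the Kv4 genes was 0.733 ± 0.0166 in WT mice (range 0.717 to 0.749) and 0.597 ± 0.0434 after shSCR (range 0.566 to 0.663). The ratio was 0.612 ± 0.0415 after shA4 (range 0.569 to 0.675), so neither SCA7 group overlapped with WT mice. Of the EAG genes, Kcnh1 (log2 fold change 0.11) and Kcnh2 (−0.15) did not pass the test, and had 0.057 and −0.043 without the late pair. Kcnip2 is described with the libraries that stood apart.

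**Figure D3:**
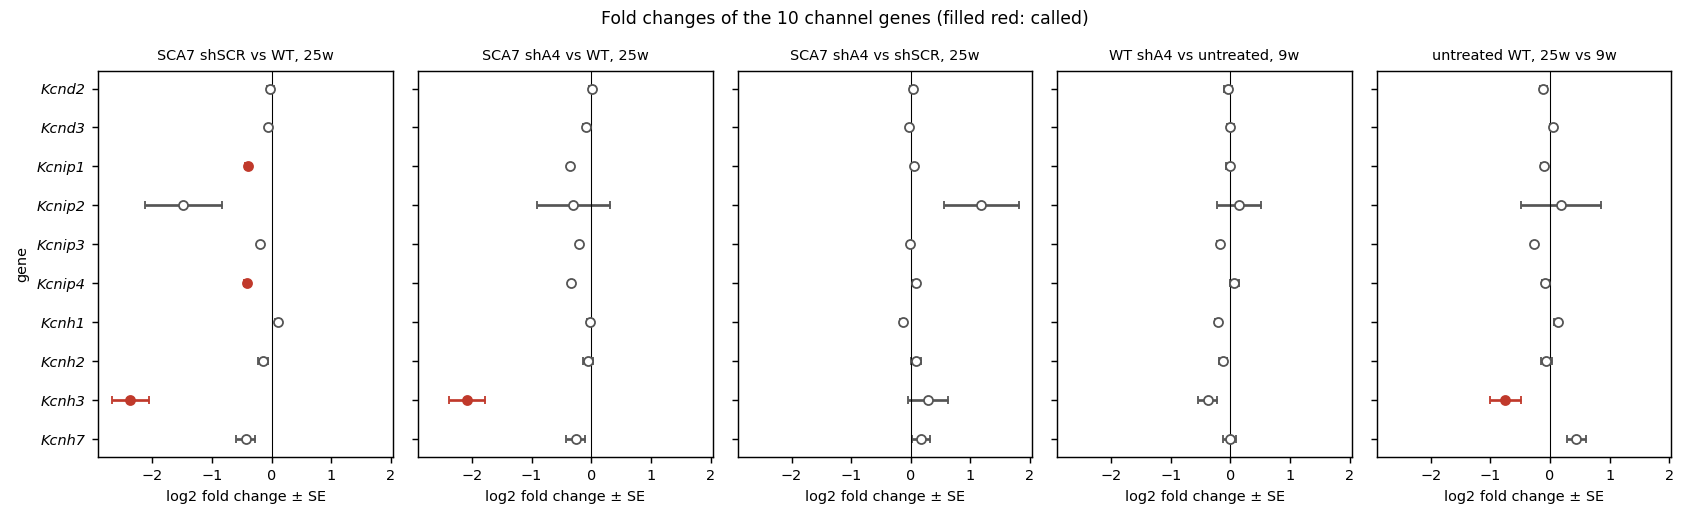
Log2 fold change of each of the 10 genes (horizontal axis) with its standard error (bars) in the 5 comparisons, from edgeR, with called genes marked. Kcnip1, Kcnip4 and Kcnh3 are marked in SCA7 shSCR against WT, and Kcnh3 also in SCA7 shA4 against WT and in untreated WT mice at 25 against 9 weeks.

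Purkinje cell markers were lower in the same libraries. The summed CPM of 12 markers, of which Itpr1 was the most abundant and none was at 0, was 13616 ± 600 in WT mice (n = 4), 9575 ± 403 after shSCR and 9785 ± 527 after shA4 (SD, n = 5 each). The lowest WT library was at 13033 and the highest SCA7 library at 10377. With shSCR 9 of these 12 markers fell, with a median log2 fold change of −0.46, close to the values of Kcnip1 and Kcnip4. Markers of other cell types fell in these libraries too. Of 7 oligodendrocyte markers, with Mbp the most abundant, 3 fell with shSCR (2 without the late pair), with a median of −0.33. Their summed CPM was 6138 ± 530 in WT mice (n = 4), 4651 ± 328 after shSCR and 4904 ± 229 after shA4 (SD, n = 5 each), and neither SCA7 group overlapped with WT mice. Of 3 unipolar brush cell markers 2 fell (median −0.63), while their summed CPM was 739 ± 33.5 after shSCR and 711 ± 55.7 in WT mice (SD, n = 5 and 4). Of 5 Golgi cell markers 1 fell (median −0.37, or −0.19 without the late pair), with sums of 439 ± 27.2 CPM in WT mice, 361 ± 15.5 after shSCR and 396 ± 6.53 after shA4 and no overlap with WT mice. Of 10 granule cell markers 3 passed the adjusted p under the fold limit with shSCR (median −0.049, or −0.099 without the late pair) and 4 with shA4 (median −0.14, or −0.17 without the late pair). Their sums overlapped between WT mice (7171 ± 545 CPM) and both shSCR (6747 ± 110) and shA4 (6453 ± 316). This overlap rests on WT replicate 1 of the late pair, at 6373 CPM. The other WT mice, at 7294 to 7580 CPM, lay above the highest SCA7 library, at 6884 CPM. Of 7 markers of molecular layer interneurons 3 passed the adjusted p under the fold limit with shSCR (median −0.097). The interneuron sums were 1745 ± 69.0 CPM in WT mice, 1493 ± 57.7 after shSCR and 1506 ± 57.3 after shA4, also without overlap. All 9 markers of Bergmann glia and astrocytes had log2 fold changes below 0 with shSCR (median −0.17), with sums of 3865 ± 41.5 CPM in WT mice and 3434 ± 101 after shSCR without overlap, and 3591 ± 258 after shA4 with overlap. Of 3 endothelial markers 1 fell with shSCR and with shA4, at sums of 144 ± 10.7 CPM in WT mice, 125 ± 7.71 after shSCR with overlap and 125 ± 2.99 after shA4 without it. Of 2 blood markers 1 rose with shSCR (median 1.80), and 0 were called without the late pair (median 1.60). Blood marker sums overlapped, at 1.88 to 20.8 CPM after shSCR and 1.58 to 3.72 CPM in WT mice. Of 5 tested forebrain markers 1, Lamp5, fell with shSCR (median −0.94), and 0 were called without the late pair (median −0.77). The sum of all 7 was 12.8 to 13.4 CPM after shSCR and 15.1 to 140 CPM in WT mice, without overlap. The part of these cell types and of other brain regions in the lower levels of KChIP genes and Kcnh3 was not tested.

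Partners of the Kv4 complex showed 1 call among the 12 of 14 genes tested. Cacna1g, which encodes the T-type calcium channel that is abundant in Purkinje cells, averaged 355 ± 20.6 CPM after shSCR and 473 ± 22.6 CPM in WT mice (SD, n = 5 and 4). It fell by 24.7% (log2 fold change −0.41, SE 0.042, adjusted p = 3.92e-06 in edgeR), and the value was −0.38 without WT replicate 2 and −0.36 with library totals alone, both under the fold limit. The DPP genes Dpp6 and Dpp10, whose products speed Kv4 inactivation, had −0.043 and −0.12, and the calcium sensor gene Ncs1 −0.22 (adjusted p = 0.0114). The beta subunit genes Kcnab1 and Kcnab2 passed the adjusted p at −0.28 and −0.31, under the fold limit. WT replicate 1, of the late pair, held the highest WT values of Ncs1 (210 CPM) and Kcnab2 (239 CPM). The lowest WT values, 170 and 192 CPM, lay above the highest after shSCR, 165 and 178 CPM. The median of the 12 genes was −0.18, and −0.10 without the late pair.

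Among 4 tested relatives of the same families, Kcnh4 was called as lower (log2 fold change −1.43, adjusted p = 0.0125 in edgeR) at 0.168 ± 0.0543 CPM against 0.459 ± 0.185 CPM. The call was lost without WT replicate 1 (−1.18) and Kcnh4 overlapped between the groups. Kcnd1 and Kcnh6 had 0.013 and 0.11. Of 7 genes tied to KChIP3, Hrk, a proapoptotic BH3-only gene reported as a target of DREAM repression, averaged 19.4 ± 2.00 CPM after shSCR and 9.39 ± 1.14 CPM in WT mice (SD, n = 5 and 4). It rose with a log2 fold change of 1.05 (adjusted p = 4.85e-07 in edgeR). Slc8a3, a sodium-calcium exchanger gene, rose by 0.39 on the log2 scale (adjusted p = 2.26e-05 in edgeR), near the fold limit. Its value was 0.37 without shSCR replicate 2, 0.36 without shSCR replicate 3 and 0.38 without WT replicate 2, each under the limit. Pdyn, Fos, Bdnf and Psen2 were among those not called.

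Of 25 tested alpha subunit genes of other voltage-gated potassium channels, 6 fell and 1 rose, with a median of −0.29. Without the late pair 4 fell and 1 rose, with a median of −0.20. Kcna6, Kcnc4, Kcng4 and Kcns1 were among those that fell, and Kcnb2 rose with a log2 fold change of 1.02 (adjusted p = 0.000229 in edgeR). The call of Kcnc4 (−0.38) ended at the fold limit without shSCR replicate 2 (−0.37), 4 (−0.36) or 5 (−0.38) and without WT replicate 1 (−0.34) or 2 (−0.37). That of Kcns1 (−0.40) ended without shSCR replicate 1 (−0.33), 2 (−0.40) or 3 (−0.39) and without WT replicate 1 (−0.35), 2 (−0.39) or 4 (−0.41). In these fits its adjusted p was 0.0576 to 0.104 in edgeR. Both calls also ended with library totals alone, with the normal prior of DESeq2 and with the replicate number as a block.

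The second late comparison asks the same of SCA7 mice given shA4, against the same 4 WT mice, so the comparisons share their controls. Kcnh3 fell, and Kcnip1, Kcnip3 and Kcnip4 were lower at an adjusted p under 0.05 but stayed under the fold limit. This is 1 call among 10 members, against 3.45% of the 14862 genes tested and 2.27% called as lower. The adjusted p alone was passed by 4 members (13.6% of all genes) and the unadjusted p by 5 (26.6% of all genes), and 4 did not overlap between groups (13.5% of all genes). The median log2 fold change was −0.24, against 0.0061 over all genes tested. Without the late pair the medians were −0.12 and 0.0062, with Kcnh3 still the 1 call.

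Kcnip1 was measured at 55.2, 55.2, 54.6, 55.0 and 49.2 CPM in SCA7 mice given shA4. Each lay below the lowest WT mouse at 64.5 CPM. Its log2 fold change was −0.35 (SE 0.043, adjusted p = 3.03e-05 in edgeR), a difference of −21.6%, and it was called without WT replicate 4 (−0.38). Kcnip4 was measured at 98.0, 95.4, 107, 107 and 98.2 CPM, all below the WT mice, with a log2 fold change of −0.34 (SE 0.044, adjusted p = 6.02e-05 in edgeR). Kcnip3 was measured at 103, 103, 105, 110 and 105 CPM, also without overlap, with a log2 fold change of −0.21 (SE 0.030, adjusted p = 0.000145 in edgeR).

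Kcnh3 was measured at 1.07, 0.440, 0.389, 0.539 and 0.353 CPM in SCA7 mice given shA4. Replicate 1, a library that stood apart in Nrgn, was the highest, and it still lay below the lowest WT mouse at 1.91 CPM. Kcnh3 fell with a log2 fold change of −2.08 (SE 0.30, adjusted p = 0.00016 in edgeR), −2.38 without both libraries that stood apart and −0.59 with the normal prior of DESeq2. An exact two-sided permutation test gave p = 0.0159, and 0.00794 with a pseudocount of 1, the smallest possible. The Kv4 genes did not pass the test, with log2 fold changes of 0.011 for Kcnd2 (0.022 without the late pair) and −0.094 for Kcnd3 (adjusted p = 0.132 in edgeR). The sign of Kcnd2 turned without shA4 replicate 3 (−0.012) or 5 (−0.0064) and without WT replicate 1 (−0.014).

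Cacna1g averaged 356 ± 10.9 CPM (SD, n = 5) and fell here as well (log2 fold change −0.41, adjusted p = 4.71e-06 in edgeR). Its value was −0.37 without WT replicate 2 and −0.36 with library totals alone, both under the fold limit. It was the 1 call among 12 tested Kv4 partners, whose median was −0.058. Hrk averaged 15.3 ± 1.27 CPM (SD, n = 5). It rose by 0.71 on the log2 scale (adjusted p = 4.04e-05 in edgeR) and was the 1 call among 7 genes tied to KChIP3. Of the 25 other alpha subunit genes, 4 fell, Kcna6 and Kcng4 among them, and Kcnb2 rose, with a median of −0.14 (−0.074 without the late pair). Among the 4 tested relatives the median was −0.087, which turned to 0.13 without the late pair, and Kcnh4 stood at −0.77 (adjusted p = 0.151 in edgeR). Of the 12 Purkinje cell markers 8 fell (7 without the late pair), with a median of −0.43.

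The third late comparison sets the SCA7 groups against each other and so tests the difference between the shRNAs itself. None of the 10 members was called by edgeR, and 0 of 14862 genes tested (0%) were called. DESeq2 also called 0 members, and 4 genes in all. None of the members was without overlap (1.49% of all genes). At an unadjusted p under 0.05 there was 1 member, Kcnh1, and 8.22% of all genes. It was measured at 70.6, 81.2, 73.9, 83.9 and 83.9 CPM with shA4 and at 84.7, 83.0, 84.2, 87.3 and 90.5 CPM with shSCR. These groups overlap, and the log2 fold change was −0.13 (SE 0.052, adjusted p = 0.563 in edgeR). In the members lower than in WT mice, the log2 fold changes between shA4 and shSCR were 0.054 for Kcnip1 (SE 0.042), 0.082 for Kcnip4 (SE 0.043), −0.021 for Kcnip3 (SE 0.029) and 0.29 for Kcnh3 (SE 0.33). Kcnip2 had the largest value of the members, 1.18 (SE 0.63, adjusted p = 0.640 in edgeR), and 0.26 without the late pair. The value of Kcnh3 turned to −0.11 without shA4 replicate 1. The call of Kcnip1 and Kcnip4 with shSCR and not with shA4 is therefore not a shown difference between the shRNAs. The article's count of Kcnip1 as restored rests on each SCA7 group against WT mice, not on this direct comparison. Hrk, measured at 15.6, 16.1, 13.9, 14.1 and 16.9 CPM with shA4 and 19.1, 17.9, 18.3, 22.9 and 18.8 CPM with shSCR, did not overlap between these groups but had an adjusted p of 0.341 in edgeR.

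The early comparison asks whether the AAV with shA4 changes the cerebellar transcriptome of WT mice. No WT group received the AAV with shSCR, so shRNA and vector cannot be told apart here. None of the 10 members was called by edgeR, against 0.0543% of the 14733 genes tested, and DESeq2 called 0 members as well. Over all genes tested edgeR called 8 and DESeq2 53, and edgeR called 1 to 43 with 1 library left out. The adjusted p alone was passed by 0 members in edgeR and 0.0679% of all genes. An unadjusted p under 0.05 was reached by 3 members, Kcnip3, Kcnh1 and Kcnh3, and 11.1% of all genes. The same 3 did not overlap between the groups (16.0% of all genes), and all were lower with shA4. Kcnh1 was measured at 64.7, 64.3 and 60.6 CPM with shA4 and at 73.1, 74.1 and 73.0 CPM without, a log2 fold change of −0.22 (SE 0.048, adjusted p = 0.162 in edgeR). Kcnip3 was measured at 124, 133 and 132 CPM with shA4 and at 142, 152 and 147 CPM without, a log2 fold change of −0.18 (SE 0.050, adjusted p = 0.257 in edgeR).

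Kcnh3, the member with the longest CAG run, was measured at 3.07, 3.26 and 3.00 CPM with shA4 and at 3.30, 4.40 and 4.45 CPM without. The highest treated mouse lay just below the lowest untreated one. Its log2 fold change was −0.38 (SE 0.16, adjusted p = 0.400 in edgeR), so it does not pass the test, and an exact permutation test of 3 against 3 mice cannot give a p under 0.1. The median log2 fold change of the 10 members was −0.028. None of the 4 relatives, 12 Kv4 partners, 7 genes tied to KChIP3 or 25 other alpha subunit genes was called by edgeR or by DESeq2, with 0, 1, 2 and 4 of them at an unadjusted p under 0.05. Summed markers of oligodendrocytes (7438 ± 157 against 8064 ± 142 CPM) and unipolar brush cells (733 ± 16.9 against 805 ± 38.7) were lower with shA4. Those of Bergmann glia and astrocytes were higher (4307 ± 96.0 against 4022 ± 81.0 CPM). None of these 3 sums overlapped between groups (SD, n = 3 each). Ccdc153, an ependyma and choroid plexus marker, rose. The part of these cell types in the members' values was not tested.

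Untreated WT mice were also compared between the labels 25 and 9 weeks, where time and cohort cannot be told apart. A difference in sex is also possible, since that of the early mice is not stated. Kcnh3 was lower in the late mice, from 3.30, 4.40 and 4.45 CPM at 9 weeks to 2.87, 2.68, 2.14 and 1.91 CPM at 25 weeks. The groups did not overlap. Kcnh3 fell with a log2 fold change of −0.75 (SE 0.26, adjusted p = 0.0412 in edgeR), the 1 call among 10 members, against 5.27% of the 15095 genes tested and 1.99% called as lower. The call was lost without 9-week replicate 2 (−0.69) or 3 (−0.68), and without 25-week replicate 2 (−0.80), 3 (−0.70) or 4 (−0.66). It was also lost with the normal prior of DESeq2 (−0.36).

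Markers of granule cells and oligodendrocytes were lower in the late mice as well. Of 10 granule cell markers 2 fell (1 without the late pair) and 5 passed the adjusted p, with a median of −0.16 and sums of 8320 ± 472 CPM at 9 weeks and 7171 ± 545 CPM at 25 weeks (SD, n = 3 and 4) that did not overlap. Of 7 oligodendrocyte markers 5 fell, with a median of −0.44 and sums of 8064 ± 142 and 6138 ± 530 CPM without overlap. Other lists went the other way. All 6 microglia markers (median 0.23, 2 past the adjusted p) and all 4 of ependyma and choroid plexus (median 0.56) were higher. So were 4 of 5 Golgi cell markers (median 0.15, or 0.0049 without the late pair). Of 3 unipolar brush cell markers 1 rose, Eomes (log2 fold change 0.75). The part of these cell types in the values of the members was not tested.

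Kcnip3 was lower at 25 weeks by 0.27 on the log2 scale and did not overlap between these groups, at 142, 152 and 147 CPM against 118, 126, 125 and 118 CPM (adjusted p = 2.42e-05 in edgeR). This difference stayed under the fold limit. These 2 members are those without overlap, against 33.3% of all genes, and those past the adjusted p alone, against 24.2%. An unadjusted p under 0.05 was reached by 5 members and 36.2% of all genes. Kcnh7 was higher at 25 weeks by 0.44 on the log2 scale (adjusted p = 0.0550 in edgeR, not a call), and it was called in 6 of 32 other settings, among them DESeq2 (0.44, adjusted p = 0.0293) and the edgeR fits without 25-week replicate 2 (0.50) or 4 (0.56) and without SCA7 shA4 replicate 1 or 4 (0.44 each). Without the late pair its value was 0.25 (adjusted p = 0.158 in edgeR). Over the list the median was −0.070. Among other alpha subunit genes 2 rose, Kcna3 among them, and Kcnq1 fell (log2 fold change −1.03, adjusted p = 0.0416 in edgeR). The call of Kcnq1 was lost in 9 of 31 other settings, among them the fits without the late pair (−0.98, adjusted p = 0.0738) and without each of the 3 mice at 9 weeks.

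Kcnip2, which encodes the KChIP best known from heart muscle, varied widely between mice of the same group. It was measured at 14.3, 1.91, 2.07 and 1.96 CPM in WT mice at 25 weeks, at 11.8, 1.89, 2.95, 2.12 and 1.84 CPM with shA4 and at 2.39, 1.84, 1.45, 1.59 and 1.93 CPM with shSCR. Its high values were those of the libraries with high Nrgn, where Kcnh5, another EAG gene, was at 4.63 and 4.39 CPM and at 0.319 to 1.01 CPM in the other late libraries. With all libraries the log2 fold change of Kcnip2 was −1.48 for shSCR against WT (adjusted p = 0.140), −0.30 for shA4 against WT (adjusted p = 0.810) and 0.19 for WT at 25 against 9 weeks (adjusted p = 0.872), all in edgeR.

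Without the libraries that stood apart, the value for shSCR against WT was −0.11 (adjusted p = 0.769), that for shA4 against WT turned to 0.15 (adjusted p = 0.680), and that for WT at 25 against 9 weeks to −1.19 (adjusted p = 0.0139), all in edgeR. Over the settings that gave an adjusted p (24, 24 and 32, since the late DESeq2 fits gave none for Kcnip2) it was 0.0546 to 0.930, 0.150 to 0.943 and 0.0139 to 0.971 in this order. The difference between 25 and 9 weeks is then a call, and the members called between 25 and 9 weeks become 2. This call needs both libraries left out, although the SCA7 library is not part of the comparison. Without WT 25-week replicate 1 alone the value was also −1.19, with an adjusted p of 0.145 in edgeR, and the 9-week library with 52.6 CPM of Nrgn is kept in both fits. In the early libraries Kcnip2 was at 4.54, 3.74 and 6.80 CPM with shA4 and at 2.14, 7.78 and 3.71 CPM without, where the highest value is again that of the library with the most Nrgn. The part of other brain regions in these libraries was not tested. The forebrain marker Emx1 was at 0.0188 CPM in untreated WT 25-week replicate 1 and at 0.266 CPM in SCA7 shA4 replicate 1. The sum of all 7 forebrain markers was 140 and 133 CPM in these libraries. In shSCR against WT, 3 of 5 tested forebrain markers (Nrgn, Ddn and Lamp5) had an unadjusted p under 0.05 in edgeR.

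Among the features that the choice of genes did not use, the longest CAG run of a transcript separates Kcnh3 from the other members. Its transcripts hold a run of 7 CAG, which 116 of 14862 genes tested (0.781%) match or exceed. Kcnip3 has a run of 3, Kcnd2 of 1 and the other 7 members of 2. The run lies in exon 8 of 15, in the coding sequence, at chr15:99232790-99232810 (GRCm38, plus strand). It is printed because shA4 is directed at CAG repeats, with 30 bases on either side and the run in capitals (chr15:99232760-99232840). Kcnh3 run: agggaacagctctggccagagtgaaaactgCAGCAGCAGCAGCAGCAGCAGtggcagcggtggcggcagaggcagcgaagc. A run is a description and no evidence that the shRNA binds it. Kcnh3 was not called with shA4 in WT mice, where it was lower without overlap (log2 fold change −0.38, adjusted p = 0.400 in edgeR). Nor was it called against shSCR in SCA7 mice (0.29, adjusted p = 0.846 in edgeR). The lack of a call does not show that Kcnh3 was unchanged.

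For each member called after shSCR, the tested genes with the most similar levels over the 14 late libraries were listed, as a description of libraries that share their groups. Kcnip1 was most like Gpr63 (Pearson r = 0.974), Kcna6 (0.969) and Ipo5 (0.966). Kcnip4 was most like Dner (0.970), Auts2 (0.968) and the Purkinje cell gene Ppp1r17 (0.968). Kcnh3 was most like 1500009C09Rik (0.962), Synpo (0.957) and Thy1 (0.953). After group means were removed, r of these 9 genes was 0.669 to 0.818.

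Of the overlaps with other annotated genes, 3 share exon bases with protein-coding genes on the opposite strand. The article describes strand-specific libraries, but the strand used in counting is not stated. Kcnh7 shares 696 bases with Gca, which had a log2 fold change of 0.36 for shSCR against WT (adjusted p = 0.00859 in edgeR), opposite in sign to Kcnh7. Kcnip4 shares exon bases with 5730480H06Rik and Kcnh3 shares 1 base with Mcrs1, whose log2 fold changes were −0.095 and 0.087. Their part in the members' values was not tested.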

How the data were processed

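Members and gene lists were chosen with earlier results of these data known. The deposited counts are raw reads per gene of 20 libraries; per the processing notes of the submitters, the authors made base calls with bcl2fastq 2.20.0.422, trimmed with cutadapt 1.10, removed ribosomal reads with Bowtie2 2.2.8, mapped to mm10 with STAR 2.5.3a and counted with HTSeq 0.6.1p1. Which strand was counted is not given. Annotation came from GENCODE M21 (Ensembl 96), which lacks 260 of the 55401 genes, and these were left out. Of the others, 21897 are protein-coding, and the main fits tested genes of this type. Testing all genes of the table was an alternative.

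Tests were run with edgeR 4.0.16 in R 4.3.3 (TMM, filterByExpr with minimum count 10 and total 15, quasi-likelihood test without robust estimation) and, as an alternative, DESeq2 1.42.0. The 14 late and the 6 early libraries were fitted separately, and all 20 together for the comparison of 25 with 9 weeks. The common biological coefficient of variation was 0.0790, 0.0729 and 0.0779. Spread between libraries of 1 group exceeded counting error (chi-square over degrees of freedom 4.87 to 26.1, 32 pairs). P-values were Benjamini-Hochberg adjusted over all genes tested, and permutation tests were exact and two-sided, on log2 of CPM with 0.1 added. CAG runs were searched in 141767 transcripts. The code was tested on simulated data. Named genes are the 10 members, their relatives, Kv4 partners, genes tied to KChIP3, other alpha subunits where called, cell type markers, and the 3 genes most like each called member; some genes of these lists are not reported here. Listed genes that could not be tested for low counts in the late and early fits are Kcne1, Kcne3, Kcnh8, 4 other alpha subunits, 5 markers of nuclei or brainstem and 2 of forebrain; Kcnh8 and 1 of the alpha subunits were tested in the fit of all 20. Nrgn, Slc17a6 and Kcnh5 were set apart for the late pair of libraries after their values were seen. Alternatives covered scaling, filter, test, genes tested, libraries in the fit, a replicate block, gene length and each library left out.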

Additional observations from a re-analysis of the deposited data

Results flagged for a closer look

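Values far from the other mice of a group were looked for in 90 groups of 4 or 5 libraries, and 11 were found, where chance gives about 1 in 20. Of these, 4 belong to untreated WT 25-week replicate 1: Kcnip2 at 14.26 CPM, Kcnh5 at 4.634 CPM, the forebrain markers at a sum of 139.7 CPM and the markers of cerebellar and vestibular nuclei or brainstem at a sum of 123.1 CPM, of which Slc17a6 holds 80.27 CPM. SCA7 shA4 replicate 1 has 4 as well, with Kcnip2 at 11.76 CPM, Kcnh5 at 4.395 CPM, Kcnh3 at 1.065 CPM and the forebrain markers at a sum of 133 CPM. The others in this group are Kcnip1 in replicate 5 at 49.22 CPM, which lay below the other shA4 mice, Kcnip3 in replicate 4 at 109.8 CPM and the microglia markers in replicate 2 at a sum of 145.9 CPM.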

How the results depend on the processing

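Direction and side of the threshold were kept in 2781 of the values recomputed, and 130 moved, 34 turned in sign, 17 gained and 48 lost a call. In SCA7 shSCR against WT, library totals alone left 1 member called, and adjusted p alone gave 2309 genes and the DESeq2 normal prior 287. Against WT with shA4 the adjusted p alone gave 4 members and 2018 genes, and the prior 266 genes. Between the shRNAs DESeq2 called 4 genes, its prior 3, and 1 without the late pair of libraries that stood apart, an alternative chosen after seeing the data. In early WT mice the genes called were 26 without the filter, 53 with DESeq2, 19 with robust estimation and 16 among all genes of the table. Between 25 and 9 weeks the members called were 2 with DESeq2, with adjusted p alone and without the late pair, and 0 with the prior, and all genes called were 445 with the prior and 3651 by adjusted p alone. The cause was not tested.

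With the replicate number as a block, early genes called were 37, members called between 25 and 9 weeks 2, Kcnh7 called with shSCR (−0.42) and between 25 and 9 weeks (0.50), Kcnd2 −0.0045 for shA4 against WT and Kcnip2 −0.19 between 25 and 9 weeks. The numbers do not pair mice: residuals of same-number libraries correlated at −0.23 to 0.49 over 13 late pairs (median 0.013) and −0.082 to 0.091 over 3 early pairs. Signs also turned for Kcnd2 with shSCR (0.024) and Kcnh1 with shA4 (0.022) under library totals, and without the late pair for Kcnip2 (0.15 for shA4 against WT, −1.19 between 25 and 9 weeks) and Kcnh3 between shRNAs (−0.11).

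With each library left out, members called ranged from 2 to 4 for shSCR, 1 to 2 for shA4, 0 to 0 between shRNAs and in early mice, and 0 to 2 between 25 and 9 weeks. All genes called ranged from 498 to 649, 452 to 572, 0 to 0, 1 to 43 and 652 to 820. Log2 fold changes ranged for Kcnd2 from −0.048 to 0.015 (shSCR), −0.014 to 0.045 (shA4) and −0.0035 to 0.070 (between shRNAs), and with shA4 for Kcnip2 from −1.23 to 1.07, Kcnh1 from −0.072 to 0.015 and Kcnh2 from −0.12 to 0.047. Kcnh3 between shRNAs ranged from −0.11 to 0.56, and Kcnip2 between 25 and 9 weeks from −1.19 to 0.82. In early mice Kcnd3 ranged from −0.042 to 0.055, Kcnip1 from −0.055 to 0.032, Kcnip2 from −0.19 to 0.78, Kcnh7 from −0.077 to 0.070 and Atxn7 from −0.028 to 0.074. Fits that leave an early group of 2 rest on a spread pooled over both groups. The early fit already holds its 2 groups alone. With 1 library left out, Kcnip2 moved the most of the members in shSCR against WT, from −1.75 to −0.11.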

Other observations

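Shox2, Lhx9, Six3 and Tcf7l2 were looked up after the values of Nrgn and Slc17a6 had been seen, and they are given as values. Shox2 was at 10.8 CPM in untreated WT 25-week replicate 1 and 9.57 CPM in SCA7 shA4 replicate 1, with a highest value of 1.20 CPM among the other late libraries. Lhx9 was at 17.4 and 18.4 CPM in these libraries and 0.528 to 2.58 CPM in the other late ones, Six3 at 8.07 and 6.33 CPM against 0 to 0.861 CPM, and Tcf7l2 at 66.8 and 58.6 CPM against 4.07 to 11.7 CPM. Among the early libraries the highest values were those of untreated WT 9-week replicate 2, with Shox2 at 3.29, Lhx9 at 4.92, Six3 at 2.79 and Tcf7l2 at 23.4 CPM, and those of WT shA4 replicate 1 (2.39, 4.38, 1.88 and 17.97 CPM) and 3 (1.93, 4.67, 1.67 and 20.3 CPM) came next. The other 3 early libraries had 0.0431 to 0.421 CPM of Shox2 and 5.82 to 9.97 CPM of Tcf7l2.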
